A study of Mus musculus with 6 samples.

Results

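The genes described here are 10 genes of major histocompatibility complex (MHC) class I antigen presentation: the heavy chains H2-K1, H2-D1 and H2-T23, the light chain B2m, the peptide transporter subunits Tap1 and Tap2, the loading factors Tapbp and Calr, the trimming enzyme Erap1 and the transactivator Nlrc5. They were chosen by name from the 23307 genes of the deposited table, in which H2-K1 is written H2.K1, and all 10 were present and tested. Inguinal lymph nodes of SJL mice were taken on day 3 of experimental autoimmune encephalomyelitis (EAE), in which immunization against myelin leads to inflammation of the nervous system, and poly(A) RNA of the meshed node cells was sequenced. Perampanel, a clinical AMPA receptor antagonist used against seizures, had been given therapeutically to 3 of the mice, and 3 were controls. Every mouse of either group thus carried the induction, and neither the dose of the drug nor what the control mice were given is stated in the labels. The series title links the blocking of AMPA receptors to less egress from the node and less neuroinflammation, and the comparison asks how perampanel changed gene expression there.

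Class I molecules show peptides from inside the cell to CD8+ T cells, and almost every nucleated cell carries them. Peptides cut by the proteasome are carried into the endoplasmic reticulum by TAP, trimmed by ERAP1, and loaded onto a heavy chain paired with beta-2 microglobulin, with the help of tapasin (Tapbp) and calreticulin (Calr). NLRC5, which is induced by interferon, drives class I heavy chain, B2m and Tap1 transcription through the X and Y boxes of their promoters.

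In meshed node cells of perampanel-treated mice, transcripts of the class I pathway lay close to their level in control cells, and 0 of 10 members passed the test. The test was limma on log2 values over 9076 genes, called at a Benjamini-Hochberg adjusted p under 0.05, which called 1.1% of all tested genes, 0.419% as higher and 0.683% as lower, and 2.01% of those with a mean of at least 100. The fold change was positive in 9 of 10 members, against 50.3% of all tested genes, and only Calr, the calcium-binding chaperone of the loading complex, was negative. The median over the members was 0.10 on the log2 scale, against 0.00 over all tested genes. Without perampanel 2 that median was 0.04 and 7 of 10 members were positive. At an unadjusted p under 0.05 by limma there were 4 members, H2-K1, H2-D1 and Tap2 as higher and Calr as lower, where 9.33% of all tested genes passed (4.36% as higher) and 12.5% of those with a mean of at least 100. On read counts, DESeq2 called 0 members (1.33% of the genes it gave an adjusted p) and edgeR called 0 (1.19% of genes).

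The promoters of H2-K1, H2-D1 and B2m are shown because these members hold the boxes through which class I genes are known to be switched on. The windows run from 250 bases before to 50 bases after the start site and are RefSeq sequence of the C57BL/6J mouse (GRCm38.p6), so the SJL letters may differ. Capitals mark TGACG followed after 20 bases by ATTGG (the X2 box and the reversed CCAAT of the Y box), GGGATTCCC (the core of a kappaB box), GTTTCACTT (the interferon element of class I genes) and GAAA repeated after 2 bases of any kind (the general interferon element), each searched on both strands. H2-K1 lies on the minus strand at chr17:34000298-34000597, H2-D1 on the plus strand at chr17:35262844-35263143 and B2m on the plus strand at chr2:122147437-122147736.
H2-K1: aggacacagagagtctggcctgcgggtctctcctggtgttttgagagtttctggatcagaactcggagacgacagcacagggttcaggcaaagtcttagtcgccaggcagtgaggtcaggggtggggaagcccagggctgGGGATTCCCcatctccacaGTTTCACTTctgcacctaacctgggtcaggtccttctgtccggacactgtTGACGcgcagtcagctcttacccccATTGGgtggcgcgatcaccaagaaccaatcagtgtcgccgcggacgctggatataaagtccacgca
H2-D1: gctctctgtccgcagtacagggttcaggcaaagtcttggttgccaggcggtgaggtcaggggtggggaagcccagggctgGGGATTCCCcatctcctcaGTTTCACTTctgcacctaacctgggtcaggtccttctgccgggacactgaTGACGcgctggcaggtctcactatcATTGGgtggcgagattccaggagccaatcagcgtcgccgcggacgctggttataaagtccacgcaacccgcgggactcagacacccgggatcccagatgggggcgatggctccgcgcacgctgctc
B2m: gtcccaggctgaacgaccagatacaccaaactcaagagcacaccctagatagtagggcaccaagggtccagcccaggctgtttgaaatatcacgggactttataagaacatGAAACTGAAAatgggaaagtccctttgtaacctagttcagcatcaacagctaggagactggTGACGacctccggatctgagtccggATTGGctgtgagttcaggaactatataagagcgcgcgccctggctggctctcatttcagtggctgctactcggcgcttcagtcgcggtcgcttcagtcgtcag

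The paired X2 and Y boxes stood 20 bases apart in H2-K1, H2-D1 and B2m. That spacing was read from these windows, so its presence in them is a description. At that spacing the pair was not found in the windows of H2-T23, Tap1, Tapbp, Erap1 or Calr. On either strand, 31 of 32817 windows (0.0945%) held the pair, among them H2-M3, a heavy chain that shows formylated peptides. The kappaB core was in 116 windows (0.353%), H2-K1, H2-D1, H2-Q6 and H2-Q7 among them. The class I interferon element was in 130 windows (0.396%). Among them were those of H2-K1 and H2-D1, of the interferon-induced genes Gbp2, Ifit1 and Cxcl10, and of many genes of other kinds, such as Olfr109, Vmn1r17 and Rorb. In H2-K1 the kappaB core began 110 bases before the annotated start site and the interferon element 91 bases before it. In H2-D1 they began 170 and 151 bases before it. The paired boxes were shifted likewise, beginning 41 bases before the annotated start in H2-K1 and 101 in H2-D1. A CCAAT began 8 bases after the annotated start of H2-K1 and 53 before that of H2-D1. These distances thus depend on where the start is annotated and do not show a different layout. The general interferon element was in the windows of H2-T23, B2m and Erap1, and in 3.43% of all windows. CCAAT by itself, which the Y box contains, was in 7 of the 8 members with a window and in 37.4% of all windows. A letter match is a description and not a site shown to work. Nlrc5 and Tap2 were not searched.

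**Figure D1:**
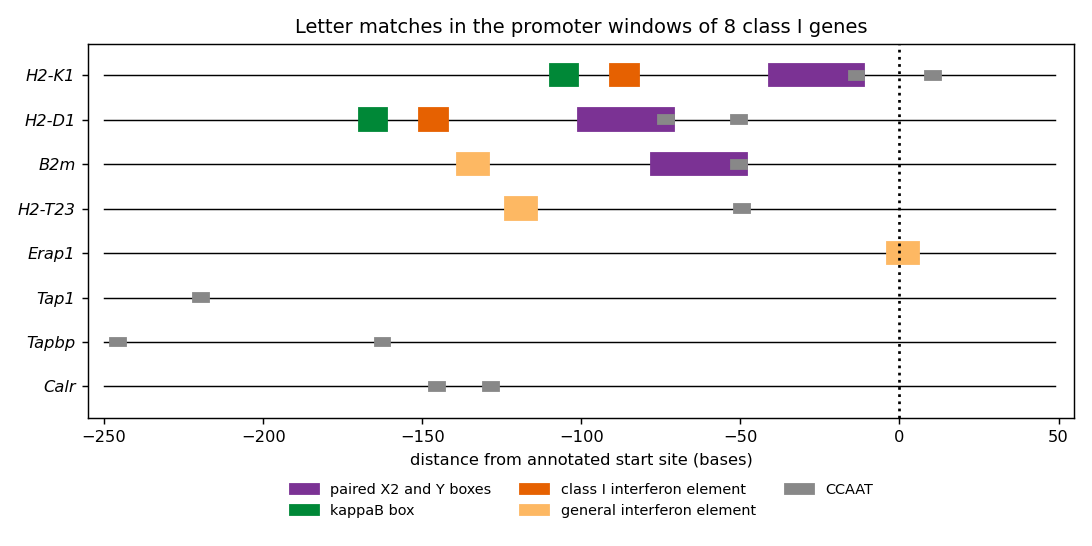
Letter matches along the promoter windows of 8 class I genes, by distance in bases from the annotated start site (dotted line). The paired boxes (purple) are in H2-K1, H2-D1 and B2m, the kappaB core (green) and the class I interferon element (orange) in H2-K1 and H2-D1, and the general interferon element (light orange) in H2-T23, B2m and Erap1, while grey marks CCAAT.

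Libraries held 1779724 to 2003726 reads under perampanel and 2036072 to 2208589 in controls, so every perampanel library was the shallower. Members were counted with 147 to 10228 reads per library, well above the floor of 3 reads (1.36 to 1.69 CPM). The 10 members together took 1.26%, 1.35% and 1.23% of the reads of perampanel 1, 2 and 3, and 1.21%, 1.24% and 1.25% of those of controls 1, 2 and 3. The suspension was rich in T cells: the summed level of 12 T cell markers was 20647 to 21219 normalized read counts under perampanel and 19264 to 20456 in controls, without overlap. The log2 fold change was positive in 8 of these markers and negative in 4. Trac was the 1 of 12 that limma called, as higher, against 0.419% of all tested genes (log2 0.16, limma adjusted p = 0.0304). Trac lost its call with the replicate block (adjusted p = 0.0686), with quantile normalization (0.0733) and without perampanel 1 (0.0584), perampanel 3 (0.0690), control 1 (0.315) or control 2 (0.141). Sums of the B cell markers were 84.7 to 107 and 90.9 to 146, of dendritic cell markers 48.1 to 63.5 and 60.3 to 109, of macrophage and monocyte markers 80.1 to 88.7 and 53.0 to 112, of natural killer cell markers 110 to 131 and 104 to 159, and of stromal and endothelial markers 202 to 250 and 179 to 209, each given for perampanel and then for control. Among the macrophage and monocyte markers limma called 0, with 1 at an unadjusted p under 0.05, and DESeq2 called 0, while edgeR called Ccr2, which had 4 to 5 reads per library under perampanel and 10 to 33 in controls (log2 -1.59, limma adjusted p = 0.104). Plasma cell markers summed to 10.3 to 23.2 under perampanel and 28.5 to 39.3 in controls, without overlap. Only 1 of these 6 markers reached the level for testing, with 0 at an unadjusted p under 0.05 by limma, so the gap rests on few reads. Of single tested genes, 6.9% had every perampanel library below every control. Neutrophil markers were at 6.12 to 10.1 and 6.39 to 10.1 and erythroid markers at 8.07 to 41.2 and 7.31 to 14.8. Clec9a, Adgre1, Mrc1, Sdc1, Elane, Ccl21a and Hba.a2 were at 0 reads in all 6 libraries. Markers of B, myeloid and stromal cells were low beside those of T cells, so the class I values say little about those cells. The part of these cell types in the class I values was not tested. In bulk samples fewer cells of a type and less RNA per cell cannot be told apart.

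The members spanned a wide range of levels. Per kilobase of annotated exon, B2m was the most abundant, at 10922 ± 471 normalized read counts under perampanel and 10750 ± 200 in controls (SD, n = 3 each). H2-D1 followed at 3320 ± 154 and 3127 ± 77.3, and H2-K1 at 1783 ± 88.4 and 1644 ± 8.74. These genes encode the structural chains of the class I molecule, and the 6 libraries of each stood apart from those of the next. By the longest coding transcript they kept this order, but H2-D1 and H2-K1 came closer. Over all 6 libraries these were at 3955 and 3110, against 3223 and 1714 by annotated exon. Whether reads of the SJL heavy chains were lost on the C57BL/6J build was not tested, so their levels are uncertain. Calr, Tapbp and H2-T23 came next, at 222 ± 4.64, 196 ± 13.5 and 124 ± 11.7 under perampanel and 248 ± 9.36, 184 ± 2.45 and 115 ± 4.21 in controls. Tap2 (78.9 ± 2.25 and 68.5 ± 5.76) and Tap1 (69.5 ± 6.11 and 64.4 ± 6.53) overlapped, as did Nlrc5 (27.5 ± 2.82 and 24.6 ± 1.72) and Erap1 (23.6 ± 0.892 and 23.5 ± 3.15). With the longest coding transcript as the length, Tap1 stood above Tap2 and Erap1 above Nlrc5, so the order within these pairs depends on the choice of length. Tapbp and H2-T23 kept their order and came closer, to 238 and 235 over all 6 libraries.

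**Figure D2:**
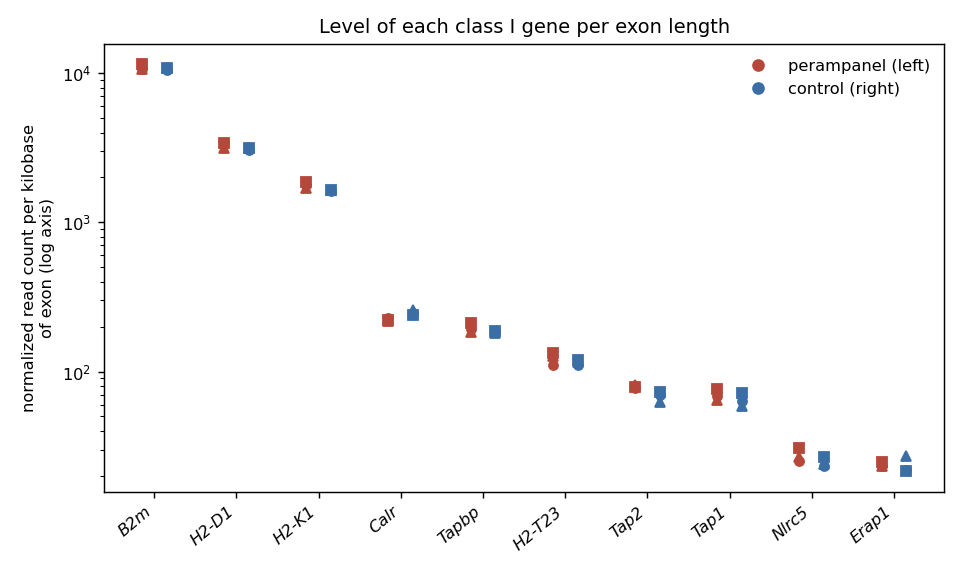
Normalized read count per kilobase of annotated exon (log axis) for each of the 10 genes, ordered by level. Red points on the left are the 3 perampanel libraries and blue points on the right the 3 control libraries, with circle, square and triangle for replicates 1, 2 and 3; B2m lies at 10922 and 10750 and Erap1 at 23.6 and 23.5.

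The classical heavy chains present peptides to CD8+ T cells. H2-K1 (GRCm38 chromosome 17, 33996017 to 34000347, protein-coding) had 5191, 5520 and 5007 normalized read counts in perampanel 1, 2 and 3, and 4802, 4833 and 4853 in controls 1, 2 and 3. All perampanel libraries lay above all controls, and the controls were tighter (coefficient of variation 0.532%) than counting error gives for such read numbers (1.41%). The log2 fold change was 0.12 ± 0.04 (SE, 95% interval 0.04 to 0.19), the lowest adjusted p among the members (limma, 0.156). Of all tested genes, 7.18% had every perampanel library above every control, and 14.1% had groups that did not overlap in either direction.

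H2-D1 (chromosome 17, 35262730 to 35267499), the other classical chain, had 8731, 8846 and 8109 normalized read counts under perampanel and 7834, 8169 and 8188 in controls. Perampanel 3 fell within the control range, so the groups overlapped. H2-D1 had a log2 fold change of 0.09 ± 0.03 (SE, 95% interval 0.02 to 0.15, limma adjusted p = 0.349). Transcripts of H2-K1 and H2-D1 share stretches of 50 bases, 5.43% of those of H2-K1 and 5.58% of those of H2-D1. In all, 13.9% of the stretches of H2-D1 also occur in other genes, most often in H2-Q1 (6.68%). SJL mice carry the s haplotype of the MHC while the genome build carries b, so how reads of heavy chains were split or lost is uncertain.

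H2-T23 encodes Qa-1, a nonclassical chain that presents leader peptides of other class I chains to CD94/NKG2A receptors (chromosome 17, 36029773 to 36032855). It had 321, 387 and 367 normalized read counts under perampanel and 322, 346 and 332 in controls. Perampanel 1 was the lowest of the 6 libraries and perampanel 2 the highest, so the control range lay inside the perampanel range. Its log2 fold change was 0.10 ± 0.09 (SE, 95% interval -0.07 to 0.28, limma adjusted p = 0.766), and it was 0.18 without perampanel 1 and 0.04 without perampanel 2. Of its 50-base stretches 29.8% also occur in other genes, the highest share among the members. Tapbp came next with 22.4%, and Tap2 had 12.1%.

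B2m, the light chain without which heavy chains do not reach the surface (chromosome 2, 122147686 to 122153083), had 9138, 9860 and 9182 normalized read counts under perampanel and 9047, 9341 and 9348 in controls. Only perampanel 2 stood above the controls, and the other perampanel libraries lay within them. Its log2 fold change was 0.02 ± 0.03 (SE, limma adjusted p = 0.878), with a 95% interval of -0.04 to 0.09. In fold terms this interval runs from 0.971 to 1.06, the narrowest of the 10. B2m shares no 50-base stretch with another gene.

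**Figure D3:**
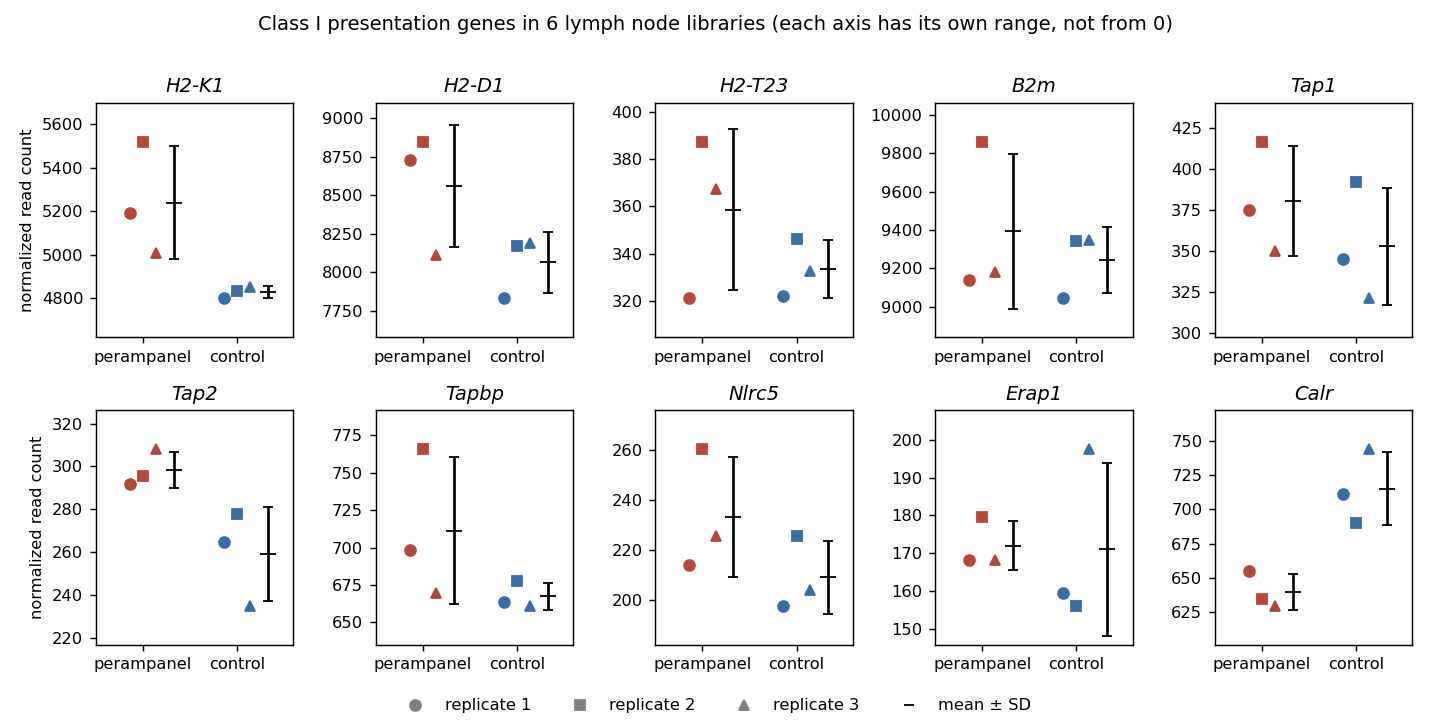
Normalized read counts of the 10 genes in the 3 perampanel libraries (red, left) and the 3 control libraries (blue, right), with mean ± SD beside each group; each panel has its own axis, which does not start at 0. The groups stand apart in H2-K1, Tap2 and Calr and overlap in the other 7 genes, and perampanel 2 (square) is the highest library in 7 panels.

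The transporter genes lie near each other in the MHC. Tap2 (chromosome 17, 34203527 to 34216321) had 292, 295 and 308 normalized read counts under perampanel and 265, 278 and 235 in controls, with every perampanel library above every control. It had the largest log2 fold change of the members, 0.21 ± 0.09 (SE, 95% interval 0.02 to 0.39, limma adjusted p = 0.458). Tap1 (chromosome 17, 34187553 to 34197225), which encodes the other subunit, was at 375, 417 and 350 under perampanel and 345, 392 and 321 in controls. These groups overlapped, with control 2 above perampanel 1 and perampanel 3. The log2 fold change of Tap1 was 0.11 ± 0.09 (SE, limma adjusted p = 0.748). It was 0.04 without perampanel 2, 0.17 without perampanel 3, 0.19 without control 2 and 0.05 without control 3.

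Psmb9, an interferon-inducible proteasome subunit, starts on the opposite strand beside Tap1, and the annotated promoter windows of the pair share 275 of 300 bases. Psmb9 averaged 497 ± 44.5 normalized read counts under perampanel and 479 ± 8.16 in controls (SD, n = 3 each, log2 0.05, limma adjusted p = 0.888). Psmb8, the subunit gene between Tap1 and Tap2, was at 847 ± 54.4 and 846 ± 49.7 (log2 0.00, limma adjusted p = 0.997). The transcripts of Tap1 and Psmb9 overlap, and without strand their shared reads cannot be told apart.

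Among the loading factors, Tapbp, which encodes tapasin (chromosome 17, 33915899 to 33929292), was at 699, 765 and 670 under perampanel and 663, 678 and 661 in controls. Perampanel 3 lay within the control range, and perampanel 1 and perampanel 2 lay above it. Its log2 fold change was 0.09 ± 0.07 (SE, limma adjusted p = 0.724), and 0.04 without perampanel 2. Calr (chromosome 8, 84841850 to 84846934), which holds newly made heavy chains in the endoplasmic reticulum and also folds many other glycoproteins, was at 655, 634 and 630 under perampanel and 712, 690 and 744 in controls. Every perampanel library lay below every control, as in 6.9% of all tested genes. Its log2 fold change was -0.16 ± 0.06 (SE, 95% interval -0.29 to -0.03, limma adjusted p = 0.367).

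Erap1, the aminopeptidase that trims peptides to the length that class I molecules bind (chromosome 13, 74639568 to 74693201), was at 168, 180 and 168 under perampanel and 159, 156 and 197 in controls. Control 3 stood above all other libraries and the groups overlapped. The log2 fold change was 0.02 ± 0.11 (SE, limma adjusted p = 0.985), and its 95% interval of -0.21 to 0.25 was the widest among the members. Its transcripts overlap those of Cast on the opposite strand (391 normalized read counts), with 13.7% of their 50-base stretches in common.

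Nlrc5, the class I transactivator (chromosome 8, 94434356 to 94527272), had 214, 260 and 226 normalized read counts under perampanel and 198, 226 and 204 in controls. Control 2 matched perampanel 3, and perampanel 2 was the highest. The log2 fold change was 0.15 ± 0.10 (SE, 95% interval -0.05 to 0.36, limma adjusted p = 0.676). Without perampanel 2 it was 0.07.

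Expressed as folds, the 95% intervals of all 10 members lay between 0.817 (Calr) and 1.31 (Tap2). The authors' deposited table also had 0 members at an adjusted p under 0.05. In the authors' deposited table H2-K1 had a log2 fold change of 0.12 and an adjusted p of 0.154. Calr had -0.16 and 0.580 in the authors' deposited table.

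**Figure D4:**
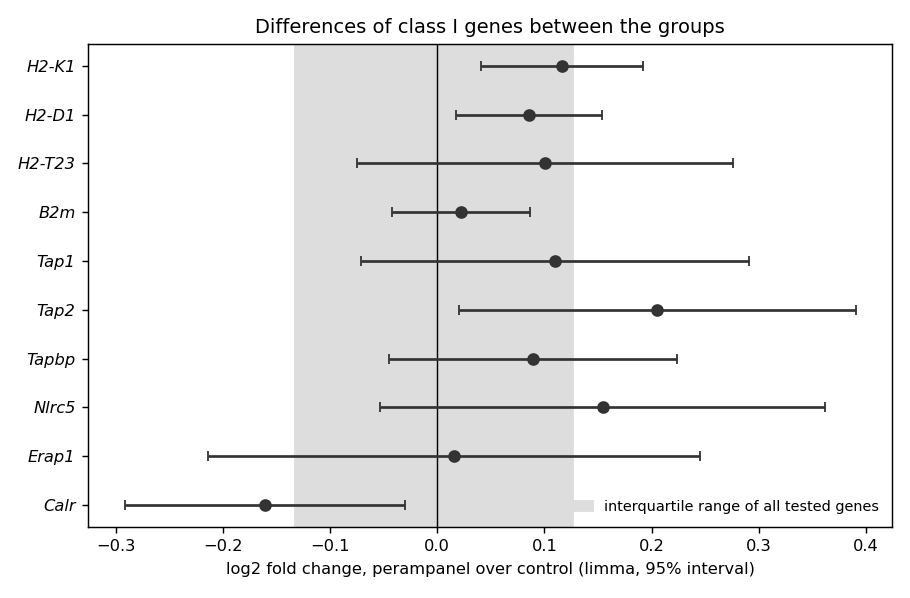
Log2 fold change of each class I gene, perampanel over control, with its 95% interval from limma; the grey band is the interquartile range of all 9076 tested genes. The intervals of H2-K1, H2-D1 and Tap2 lie above 0 and that of Calr below 0, and none of the 10 passed after adjustment.

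Perampanel 2 was the highest of the 6 libraries in 7 of 10 members, against 17.7% of all tested genes. The mean deviation of the members from their own averages was 0.00, 0.11 and -0.00 on the log2 scale in perampanel 1, 2 and 3, and -0.07, -0.01 and -0.04 in controls 1, 2 and 3. Perampanel 1 and perampanel 3 thus lay next to control 2, and perampanel 2 was the highest. H2-K1, H2-D1, B2m, Tapbp, Tap1 and Nlrc5 went up and down together over the 6 libraries, with a Pearson r of 0.62 to 0.94 in their 15 pairs. After the group means were taken out, r in these pairs was 0.46 to 0.97. Calr ran against Tap2 (r = -0.96 over the 6 libraries and -0.95 after the group means were taken out). The libraries share their normalization and the members were grouped after their values were seen, so these are descriptions.

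**Figure D5:**
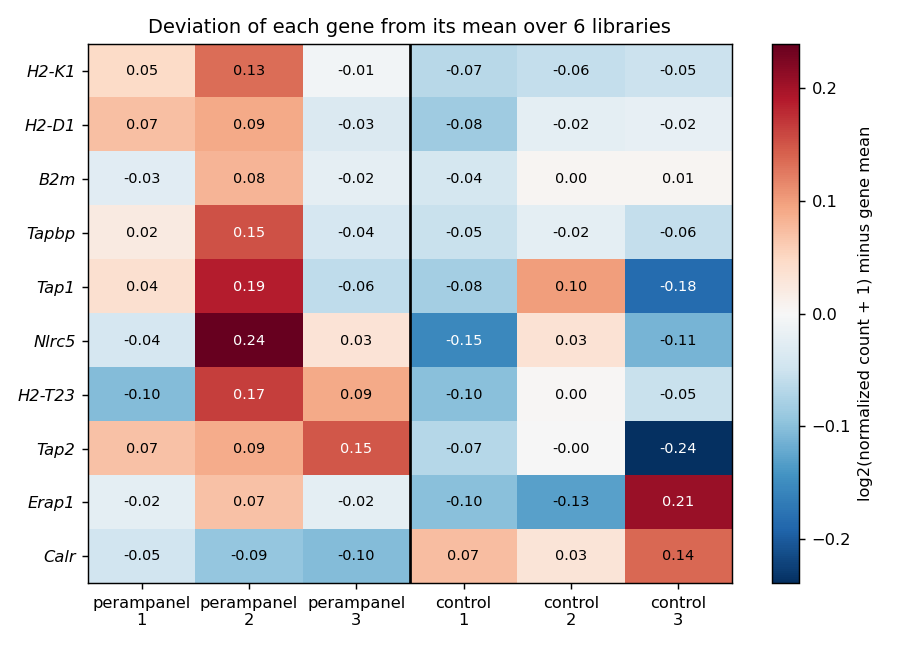
Deviation of log2(normalized count + 1) from each gene's mean in the 3 perampanel libraries (left) and the 3 control libraries (right). Perampanel 2 is above the mean for 9 of the 10 genes, most for Nlrc5 (0.24), and Calr is below its mean in all perampanel libraries.

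Of 5514 other genes averaging 50 normalized read counts or more, 5 were taken whose profile over the 6 libraries was most like the members' mean. They were Nck1, P2ry10, Gbp2, Zfp942 and Ttc13 (Pearson r 0.97 to 0.98). As the highest of 5514 over only 6 libraries, a high r was built into the choice. The members' mean was higher under perampanel, so the choice also favored genes with a positive fold change. Shared regulation was not tested. Gbp2, an interferon-inducible GTPase, whose promoter window held the class I interferon element, averaged 328 ± 106 normalized read counts under perampanel and 221 ± 27.8 in controls (SD, n = 3 each, log2 0.53, limma adjusted p = 0.0581). P2ry10, a lysophospholipid receptor gene of lymphocytes, was at 228 ± 68.2 under perampanel and 150 ± 18.1 in controls and was called (log2 0.57, limma adjusted p = 0.0378). Without perampanel 2 the log2 fold change was 0.28 for Gbp2 (limma adjusted p = 0.448) and 0.34 for P2ry10 (0.353). The call of P2ry10 was also lost without control 1 (log2 0.47, adjusted p = 0.225), without control 2 (0.63, adjusted p = 0.0913), with quantile normalization (adjusted p = 0.109) and with DESeq2 (adjusted p = 0.0567). Without perampanel 2 the r of these 5 genes were 0.85 to 0.91. For Nlrc5 alone the nearest were Naxd, Gbp2 and Twf2 (0.97 to 0.99, and 0.91 to 0.99 without perampanel 2).

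The wider class I pathway was described with lists of other genes. Of all tested genes, 50.3% had a positive log2 fold change and 9.33% an unadjusted p under 0.05 by limma. In the heavy chain, loading and folding, immunoproteasome and trimming, and regulator lists, where limma called 0 genes, DESeq2 and edgeR also called 0. Of 25 further heavy chain and class I-like genes, 12 were tested, 0 passed and 10 had a positive log2 fold change (median 0.13). At an unadjusted p under 0.05 by limma 2 were higher, H2-Q4 and H2-T22, against 4.36% of all tested genes. H2-Q4, H2-T3, H2-T22 and Mr1 had every perampanel library above every control, as did 7.18% of all tested genes. Genes of this list whose promoter window held the class I interferon element were H2-Q4, H2-Q6, H2-Q7, H2-Q10, H2-T3, H2-T22 and H2-M3, beside H2-K1 and H2-D1. H2-T22 averaged 195 ± 22.3 under perampanel and 164 ± 3.37 in controls (log2 0.25, limma adjusted p = 0.458), and H2-T3 77.8 ± 13.3 and 61.3 ± 3.72 (log2 0.33). H2-Q7, a Qa-2 chain, was at 1420 ± 221 and 1285 (control coefficient of variation 4.28%), and 1667 in perampanel 2. H2-Q4, H2-Q6, H2-Q10 and H2-M3 had log2 fold changes of 0.37, 0.12, -0.03 and 0.09. These chains are close copies of each other, so their separate counts are uncertain.

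Of 15 further genes of peptide loading and folding in the endoplasmic reticulum, 15 were tested and 0 passed by limma, with 1 at an unadjusted p under 0.05 (median -0.04, with 9 negative). Their summed level was 4129 to 4204 normalized read counts under perampanel and 4222 to 4405 in controls, without overlap. Such a gap was not particular to this list. The sums of the regulators and of the interferon receptor list, described below, lay above controls without overlap. The regulators had 11 positive and 9 negative log2 fold changes and the interferon receptor list 8 and 3. A sum follows mostly its most abundant genes, so it does not show a rise of the list as a whole. The sum of the genes that read class I molecules lay below controls. The sums of the heavy chain and immunoproteasome lists overlapped. Canx, the membrane-bound relative of calreticulin, averaged 450 ± 24.1 under perampanel and 509 ± 38.6 in controls (log2 -0.18, limma adjusted p = 0.443). Pdia3, the partner of tapasin in the loading complex, was at 418 ± 37.9 and 436 ± 48.7. Another 6 of the 15 were positive. The highest of these was Tapbpl, at 131 ± 31.5 under perampanel and 108 ± 2.77 in controls, with overlapping groups (log2 0.25, limma adjusted p = 0.617). In the list of immunoproteasome and peptide trimming genes 11 of 13 were tested and 0 passed by limma, with 1 at an unadjusted p under 0.05 (median -0.02, 5 positive and 6 negative).

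Upstream of class I transcription, 0 of 20 tested regulators passed by limma (median 0.02), with 1 at an unadjusted p under 0.05. Irf1, which binds interferon elements of class I promoters, averaged 409 ± 20.1 under perampanel and 387 ± 30.8 in controls (log2 0.08, limma adjusted p = 0.822).

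Of 11 tested genes among 12 interferon receptors and their signalling partners, limma called 1 as higher, against 0.419% of all tested genes, and 0 as lower. The median was 0.14, with 8 positive and 3 negative. At an unadjusted p under 0.05 by limma 3 were higher, against 4.36% of all tested genes. Besides the called gene these were Socs1 (log2 0.41, limma adjusted p = 0.211) and Jak1 (0.14, 0.324). Both had every perampanel library above every control, as did 7.18% of all tested genes. The called gene was Ifngr1, the ligand-binding chain of the interferon-gamma receptor. It had 269, 383 and 246 normalized read counts under perampanel and 171, 169 and 224 in controls. Every perampanel library lay above every control (log2 0.65 ± 0.13, SE, limma adjusted p = 0.00543). The call was lost without perampanel 2 (log2 0.46, adjusted p = 0.0872) and without control 2 (log2 0.58, adjusted p = 0.0807). Ifng, the gene of the cytokine itself, was at 0 reads in all 6 libraries.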

How the data were processed

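RNA-seq libraries were made from inguinal lymph node cells of 3 perampanel-treated and 3 control EAE mice on day 3, from 100 ng of RNA with an integrity number above 9 and 12 amplification cycles, per the labels' protocols. The labels name 3 mice per group. The deposited table holds, for each sample, size-factor-normalized signal (read counts divided by 1 factor per sample), with the authors' mean signal, log2 fold changes and their errors, a Wald score, p-values and adjusted p-values. Per the submitters' processing notes DESeq2, DESeq and GRCm38 were used. An aligner or counter is not given in the sources used. The deposited score has the opposite sign to the deposited log2 fold change in all 19321 genes that have a fold, and the fold was taken as perampanel over control because it matches the sample columns. All values (100% within a tolerance of 1e-06) were whole multiples of each sample's smallest value, which gave back read counts. Read counts served for depth and for the count tests only. Counting intervals and floors cover counting error only, since reads carry no molecular identifiers. Libraries of the same group differed by more than sampling noise (chi-square per degree of freedom 1.56 to 1.80).

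Genes with a mean of at least 10 (9076) entered limma-trend on log2(value + 1), with 1 coefficient for perampanel against control (limma 3.58.1 under R 4.3.3), and p-values were adjusted over all tested genes by Benjamini-Hochberg. Alternatives used edgeR 4.0.16 and DESeq2 1.42.0 on read counts, quantile and TMM scaling, other filters and pseudocounts, a replicate block and the omission of each library. The scripts were tested on simulated data. The members, lists, motifs and tests were chosen with earlier results of these data known. Named genes were the 10 members, Psmb8, Psmb9 and Irf1, the called genes of each pathway list, the 5 genes most like the members' mean profile and the 3 most like Nlrc5; other named genes were chosen after their values were seen. The rule also named 1 gene that is not reported here. Positions, exon lengths and transcripts are from GENCODE mouse release M21 (GRCm38), and promoters are from RefSeq (GRCm38.p6).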

Additional observations from a re-analysis of the deposited data

How the results depend on the processing

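The count of class I members called was 0 in all 15 alternatives run. Genes called over the whole table numbered 100, against 179 with no filter on low values, 50 with DESeq2 and 44 to 113 when each library was left out in turn, with 44 without control 1 and 55 without control 2. The causes were not tested. The members' median log2 fold change of 0.10 ran from 0.044 (without perampanel 2) to 0.13 (without perampanel 3) over the omissions and was 0.06 with quantile normalization. H2-K1 was at 0.06 with quantile normalization and at most 0.15 (without perampanel 3, adjusted p = 0.0743 by limma, the lowest of any member in any alternative). B2m changed sign with quantile normalization (-0.02) and without perampanel 2 (-0.01). Erap1 changed sign in 4 alternatives, and the other 8 members kept their sign in all 15. With quantile normalization 7 of 10 members were positive. Trac lost its call in 6 alternatives, P2ry10 in 5, and Gbp2 passed in 7. With the replicate number as a block, 103 genes and 0 members were called. Same-numbered samples deviated together only weakly (r 0.02 to 0.03 over 9076 genes), though each sample correlated best with its own number, so the numbers were not taken as pairs. At these depths the counting error of a single library was 1.03% for B2m and 7.60% for Erap1.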

Other observations

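On the side of the cells that read class I molecules, 4 of 15 genes were tested and 0 passed by limma, DESeq2 or edgeR. At an unadjusted p under 0.05 by limma there were 2, against 9.33% of all tested genes, and the median was -0.25 on the log2 scale. Cd8a, a chain of the coreceptor that binds class I molecules, had 138, 150 and 142 normalized read counts under perampanel and 192, 172 and 187 in controls. Cd8b1, its partner chain, had 193, 176 and 190 under perampanel and 219, 200 and 197 in controls. Both were lower in every perampanel library than in every control, as were 6.9% of all tested genes. Neither passed (log2 -0.36 and -0.14, limma adjusted p = 0.130 and 0.723). Cd160, a receptor of T and natural killer cells, was at 9.82 ± 2.16 under perampanel and 18.9 ± 4.12 in controls (SD, n = 3 each, log2 -0.88, limma adjusted p = 0.385). Its groups also did not overlap, but its level was near the limit of what these depths can compare.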
